A study of Mus musculus with 8 samples.

Results

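Art2b and 7 other genes of extracellular NAD and ATP signalling, P2rx7, P2rx4, Cd38, Bst1, Entpd1, Nt5e and Adora2a, were followed in total splenocytes of mice given all-trans retinoic acid (tRA) or vehicle. The 8 genes were selected by symbol from the 51826 genes in the table, and all 8 were found and were among the 16484 genes that passed a filter on low counts. Art2b was chosen on the difference between tRA and control in these same mice, where the study showed it among its changed genes, so its values are a description with no test. The other 7 were chosen by their roles around it, with earlier results of these mice known.

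RNA was sequenced from spleen cells of Balb/c mice that had received no pristane, the hydrocarbon that induces lupus in this strain. The tRA group (n = 4 mice) was dosed by mouth each day with 1 mg/kg body weight of tRA from weaning until the spleens were taken at 3 months of age. The control group (n = 4 mice) was of the same strain, sex (female) and age and received the vehicle, canola oil, by the study's methods. The treatment text in the sample labels gives tRA for all 8 samples, so the groups rest on the sample titles. Counts on genes totaled between 30919272 and 37539631 per control mouse and between 31810417 and 35165876 per tRA mouse.

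Extracellular NAD and ATP are released by stressed or dying cells and are read by lymphocytes as danger signals. In mice, the enzyme encoded by Art2b, ART2.2, sits on the T cell surface and transfers ADP-ribose from NAD onto other surface proteins, among them the ATP-gated channel P2X7, which then opens without ATP and leads to shedding of surface proteins, exposure of phosphatidylserine and death of the cell. CD38 consumes the NAD that ART2.2 needs, while CD39 and CD73, encoded by Entpd1 and Nt5e, convert ATP to adenosine, which acts on T cells through the receptor encoded by Adora2a.

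Spleen cells are a mixture, and the defining markers of their main populations were all detected. Summed over 7 B cell markers, the level was 6211 ± 477 CPM (SD, n = 4) in control and 6212 ± 94.1 in tRA mice, and over 11 T cell markers it was 1912 ± 169 and 1962 ± 86.0, with overlap between the groups for both. CPM are counts scaled to a common library size, normalised by the TMM method. In whole spleen cells, fewer cells of a type and less RNA per cell cannot be told apart.

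Levels between genes were compared per length, as RPKM, the CPM value divided by the exon length in kilobases. Cd38 had the highest level of the 8 genes at 25.0 ± 1.93 RPKM (SD over 8 mice), and it exceeded P2rx7 in 8 of 8 mice. P2rx7 at 10.1 ± 1.34, P2rx4 at 9.05 ± 0.442, Adora2a at 7.96 ± 0.628 and Entpd1 at 7.58 ± 0.828 RPKM followed. These 4 genes form a middle group in which neighbours in the order had overlapping ranges, P2rx7 being above P2rx4 in 6 of 8 mice, P2rx4 above Adora2a in 7 and Adora2a above Entpd1 in 5. Entpd1 lay above Art2b in 8 of 8 mice. Art2b at 2.68 ± 0.904 (2.00 ± 0.462 in control and 3.35 ± 0.695 in tRA mice), Nt5e at 2.39 ± 0.361 and Bst1 at 1.92 ± 0.190 RPKM had the lowest levels, with overlapping ranges between neighbours. Of these 3, Art2b was below Nt5e in 4 of 4 control mice and above it in 4 of 4 tRA mice, and Nt5e was above Bst1 in 4 of 4 control and 2 of 4 tRA mice. Of the genes tested, 41.7% had a mean RPKM at or below that of Art2b and 87.3% at or below that of Cd38.

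**Figure D1:**
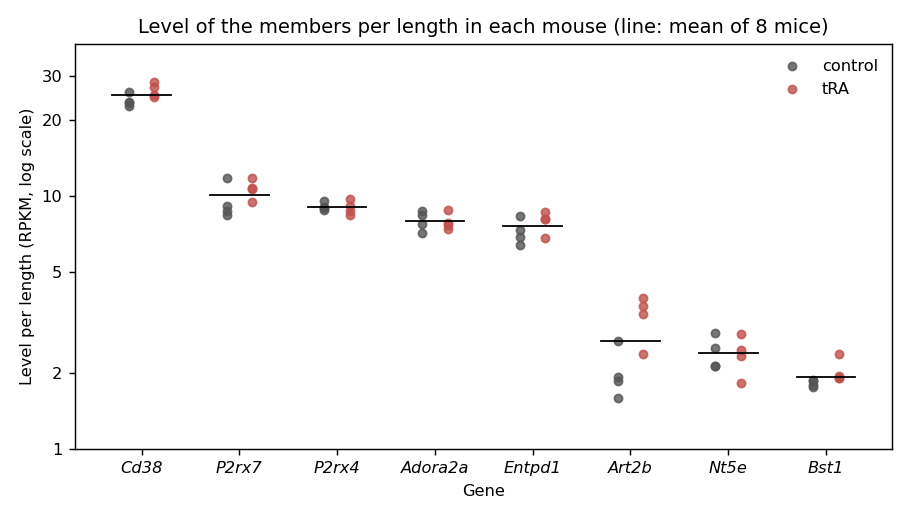
Level per length (RPKM, log scale) of each of the 8 genes in each mouse, with control mice in grey, tRA mice in red and a line at the mean of the 8 mice. Cd38 stands above the others, the next 4 genes lie between 6.40 and 11.8 RPKM, and Art2b, Nt5e and Bst1 lie between 1.58 and 3.96 RPKM.

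Art2b (ENSMUSG00000030651) lies on the minus strand of chromosome 7 from 101576970 to 101585600 (GRCm38). Its level was 5.44, 5.23, 4.48 and 7.53 CPM in control mice 1 to 4 and 6.69, 11.2, 10.4 and 9.66 CPM in tRA mice 1 to 4. In tRA mice 2 to 4 it was above every control mouse, while tRA mouse 1 was below control mouse 4, so the groups overlapped. The means were 5.67 ± 1.31 and 9.48 ± 1.97 CPM (SD, n = 4), 1.67-fold higher with tRA, or 0.74 on the log2 scale with a standard error of 0.195. No interval or p is given for this difference, on which the gene was chosen. These values rest on 155 to 233 counts per control mouse and 219 to 382 per tRA mouse, so counting error is larger for Art2b than for the more abundant members. Leaving out single mice moved this log2 difference between 0.64 without control mouse 3 and 0.91 without control mouse 4.

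T cells are the cells in which ART2.2 is best known, so Art2b was also set against the T cell markers of the same mouse. Per 1000 CPM of the 11 T cell markers, it stood at 3.10, 2.94, 2.15 and 3.71 CPM in control mice 1 to 4 and at 3.20, 5.84, 5.41 and 5.02 CPM in tRA mice 1 to 4. Again tRA mouse 1 lay within the control range, and the other 3 tRA mice lay above it. With the mean T cell marker level of each mouse as a covariate, the log2 fold change of Art2b was 0.73. Of the 11 T cell markers, among which Lck was the most abundant by CPM and none was at 0, 8 had a positive and 3 a negative log2 fold change, with a median of 0.082.

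For naive T cells, 4 markers are given (Ccr7, Lef1, Il7r and Tcf7, the most abundant of the 4 by CPM). They are a part of a list, fixed after the values were seen, and do not describe the list as a whole. They summed to 1059, 969, 993 and 1140 CPM in control mice 1 to 4 and to 1386, 1124, 1004 and 1107 CPM in tRA mice 1 to 4. All 4 had a positive log2 fold change, with a median of 0.11 and a range from 0.00067 (Lef1) to 0.33 (Il7r). Of these, 2 had an unadjusted p under 0.05, Tcf7 (0.21) and Il7r (0.33), while the sum of the 4 overlapped between the groups. For the counts in this paragraph, the share of all genes tested with an unadjusted p under 0.05 was 6.49%. All tRA mice were below the control mice for 1.63% of all genes tested. An FDR under 0.1 in the quasi-likelihood test of edgeR was found for 0% of them, so for no marker. In 4 of the other marker lists given in full, 3 or more of the 4 tRA mice lay below all control mice. For the 8 neutrophil precursor markers, led by Ngp, the sum was 542, 680, 715 and 614 CPM in control mice 1 to 4 and 242, 301, 329 and 477 CPM in tRA mice 1 to 4. All tRA mice were below the control mice there, with 8 of 8 markers negative, a median of -0.90 and an unadjusted p under 0.05 for all 8. For 8 immediate early genes, led by Fos, the sum was 16162, 15272, 14388 and 13100 CPM in control mice 1 to 4 and 15338, 11847, 5502 and 6972 CPM in tRA mice 1 to 4. The groups overlapped for that sum, 8 of 8 genes were negative, 3 of them with an unadjusted p under 0.05, and the median was -0.52. For 6 plasma cell markers, led by Jchain, the sum was 984, 949.8, 949.7 and 1150 CPM in control mice 1 to 4 and 870.3, 1003, 746 and 756 CPM in tRA mice 1 to 4. Of these 6, 3 were negative, Jchain (-0.46), Tnfrsf17 (-0.78) and Sdc1 (-0.17), with all tRA mice below the control mice for the last 2, and 3 were positive, 0.11 at most. The median was -0.082, and 2 (Jchain and Tnfrsf17) had an unadjusted p under 0.05. The 4 platelet markers, led by Itga2b, summed to 7.32 ± 0.433 CPM in control and 6.57 ± 0.527 in tRA mice (SD, n = 4), with 3 of the tRA mice below the control mice. Most of that sum is Itga2b, at 6.20 ± 0.500 and 5.80 ± 0.511 CPM, with a log2 fold change of -0.095 and overlap. In any mouse Pf4, Gp9 and Ppbp reached at most 0.722, 0.651 and 0.650 CPM. Ppbp, on 2 to 24 counts, had all tRA mice below the control mice but did not pass the filter. None of the markers in these 5 lists was at 0, and their part in the level of Art2b was not tested. The summed levels of the groups overlapped in 8 further lists of cell type markers and in that of 6 mature neutrophil markers, led by Csf3r. In the latter 4 markers were negative and 2 positive, with a median of -0.50, and 3 had an unadjusted p under 0.05, Ly6g (-0.77), S100a8 (-0.63) and S100a9 (-0.58), while Csf3r (0.25) and Cxcr2 (0.39) were positive.

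A close copy, Art2a-ps (ENSMUSG00000092517), is the gene of ART2.1 and is annotated in the reference as a polymorphic pseudogene. That annotation is not of the Balb/c strain, and whether these mice make the enzyme was not tested. The copy lies on the same strand of chromosome 7 from 101552453 to 101560865, separated from Art2b by 16104 bases and 1 annotated gene. The longest transcripts of the pair aligned over 1205 columns with 86.3% identity, the longest identical run was 125 bases, and over the coding part of Art2b the identity was 87.0%. Of the 50-base windows of Art2b transcripts, 5.84% also occur in a transcript of another gene, and 11.8% of those of Art2a-ps do. In each case the gene that shares the largest number is the other of the pair. Reads from these stretches cannot be assigned by sequence alone, and the reference is not of the Balb/c strain, so both levels are uncertain. The stretch of 60 coding bases in which the pair differ most, with 21 differences, shows where reads can be told apart. It is in exon 3 of 4 of Art2b, coding bases 294 to 353, chr7:101580338-101580397 on the minus strand of GRCm38. Both are printed 5′ to 3′ from the GENCODE transcripts, with the differing bases in capitals.
Art2b: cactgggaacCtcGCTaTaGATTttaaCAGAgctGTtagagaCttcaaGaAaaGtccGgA
Art2a-ps: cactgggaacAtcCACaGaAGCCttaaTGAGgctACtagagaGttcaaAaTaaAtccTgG

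Art2a-ps stood at 3.30, 2.55, 1.53 and 2.29 CPM in control mice 1 to 4 and at 1.80, 2.33, 2.28 and 2.54 CPM in tRA mice 1 to 4. The groups overlapped, and its log2 fold change was -0.12 with a standard error of 0.236 (edgeR FDR 0.933). Art2b took 62.2, 67.2, 74.5 and 76.6% of the counts of the pair in control mice 1 to 4. In tRA mice 1 to 4 it took 78.8, 82.8, 82.0 and 79.2%, each above every control mouse. This share is made from the values on which Art2b was chosen, so its separation is a description and no test. It also depends on the uncertain counts of Art2a-ps. Summed over both genes, the level was 8.74, 7.78, 6.01 and 9.82 CPM in control and 8.49, 13.5, 12.6 and 12.2 CPM in tRA mice 1 to 4, with overlap. With the counts of the pair summed before the fit, a setting chosen after seeing the data, the log2 fold change was 0.53.

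Across all genes tested, 0 (0%) had an FDR under 0.1 in the quasi-likelihood test of edgeR, adjusted by Benjamini-Hochberg over all of them, 1070 (6.49%) had an unadjusted p under 0.05, and DESeq2 called 27 (0.198% of the 13625 it tested). Leaving out single mice moved the count at an unadjusted p under 0.05 between 657 (3.93%) without tRA mouse 4 and 2105 (12.6%) without tRA mouse 1. Of the 8 members, edgeR called 0 and limma-voom 0. DESeq2 called 1 member, Art2b, from which nothing is read because it was chosen on this contrast. None of the other 7 had an unadjusted p under 0.05 in the main fit. Cd38 did under 3 alternative settings, in which 5.25 to 12.6% of all genes tested did, and P2rx7 under 1, in which 6.35% did. The log2 fold change was positive for 4 of these 7 and negative for 3, with a median of 0.13 against 0.0014 over all genes tested. The groups did not overlap for 1 member, Bst1, with tRA above control, where 1.91% of the genes tested lay that way and 1.63% lay with tRA below.

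**Figure D2:**
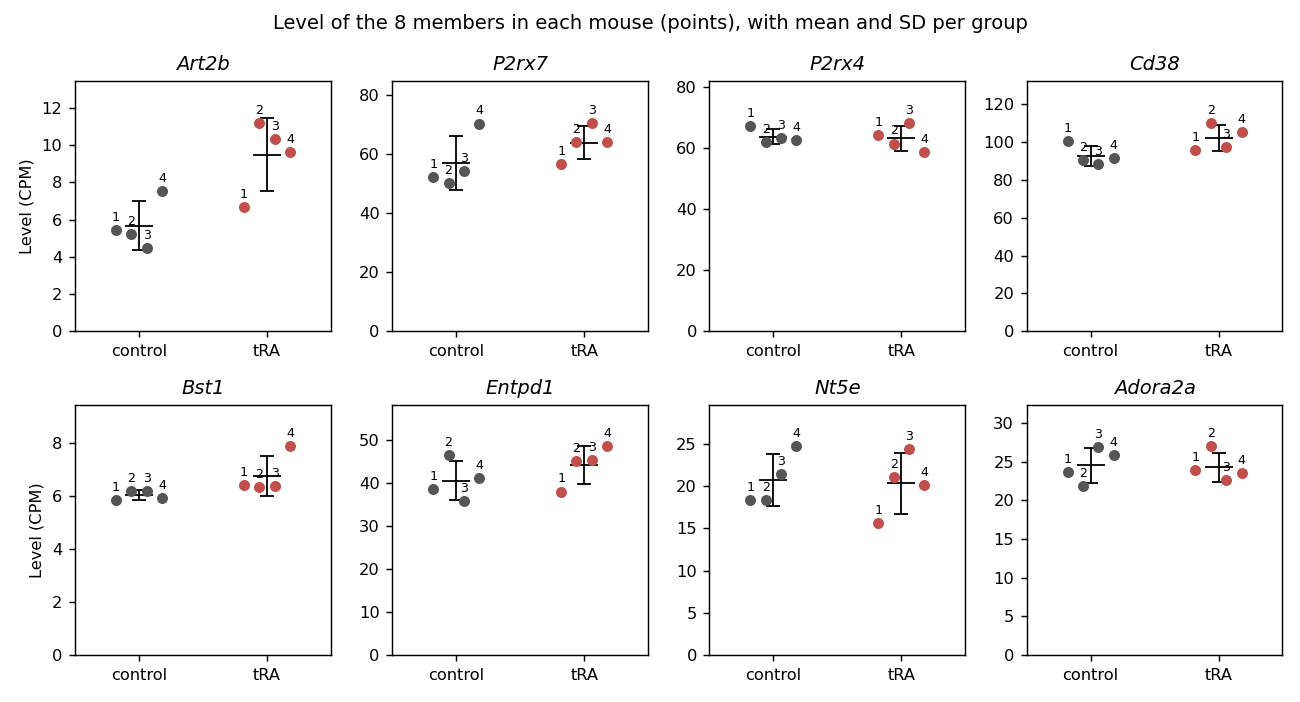
Level (CPM, axis from 0) of each of the 8 genes in each mouse, with the mouse number above each point, control mice in grey and tRA mice in red, and the mean and SD of each group in black. For Art2b, tRA mice 2 to 4 lie above all control mice, and for Bst1 all tRA mice do. For the other 6 genes the groups overlap.

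P2rx7, the channel that ART2.2 modifies, lies on chromosome 5 from 122643911 to 122691432. Its level was 52.3, 50.3, 54.3 and 70.3 CPM in control mice 1 to 4 and 56.7, 64.0, 70.6 and 64.2 CPM in tRA mice 1 to 4. Control mouse 4 was nearly as high as the highest tRA mouse, and the groups overlapped. The log2 fold change was 0.17 with a standard error of 0.110 and a 95% confidence interval from -0.074 to 0.41 (edgeR FDR 0.793), a difference within the spread between mice. Without control mouse 4 it was 0.29.

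P2rx4 encodes another ATP-gated channel, and its gene follows P2rx7 on the same strand of chromosome 5, from 122707544 to 122729738, with 16111 bases and 1 annotated gene between them. It stood at 67.3, 61.9, 63.3 and 62.8 CPM in control mice 1 to 4 and at 64.5, 61.6, 68.4 and 58.9 CPM in tRA mice 1 to 4. All control mice lay within the range of the tRA mice. On the log2 scale the difference was -0.011 with a standard error of 0.0669 and an interval from -0.16 to 0.14 (edgeR FDR 0.982), and its sign turned under 4 of the alternative settings, among them 0.022 without tRA mouse 4.

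The NAD-consuming enzymes CD38 and BST1 (CD157) are related, and their genes are adjacent on chromosome 5, Bst1 from 43818885 to 43843986 and Cd38 from 43868553 to 43912375. Both are on the plus strand, with 24566 bases and 0 annotated genes between them. Cd38 stood at 100.3, 90.6, 88.5 and 91.5 CPM in control mice 1 to 4 and at 95.9, 110.2, 97.4 and 105.1 CPM in tRA mice 1 to 4. Control mouse 1 was above tRA mice 1 and 3, so the groups overlapped. For Cd38 the log2 fold change was 0.14 with a standard error of 0.0693 and an interval from -0.014 to 0.29 (edgeR FDR 0.778). An antisense gene, Gm16015, overlaps Cd38, and whether the counting used the strand is not given in the sources used here, so reads of the pair may not be separated.

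Bst1 stood at 5.82, 6.16, 6.18 and 5.91 CPM in control mice 1 to 4 and at 6.41, 6.33, 6.34 and 7.85 CPM in tRA mice 1 to 4. Of the tRA mice, 1 to 3 lay just above the control range and mouse 4 lay apart from them. The log2 fold change was 0.16 with a standard error of 0.119 and an interval from -0.10 to 0.42 (edgeR FDR 0.813), and it was 0.080 without tRA mouse 4. Its gene overlaps Fbxl5 on the other strand. Of the 50-base windows of Bst1 transcripts, 2.11% also occur in another gene, and Fbxl5 is the gene that shares the largest number.

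Entpd1, whose product CD39 breaks ATP and ADP down to AMP, lies on chromosome 19 from 40612366 to 40741602. It stood at 38.5, 46.5, 35.7 and 41.1 CPM in control mice 1 to 4 and at 37.9, 45.1, 45.3 and 48.4 CPM in tRA mice 1 to 4. Control mouse 2 was above 3 of the tRA mice, and tRA mouse 1 was near the low end of the control range. The log2 fold change was 0.13 with a standard error of 0.0998 and an interval from -0.092 to 0.35 (edgeR FDR 0.821), and it ranged from 0.066 without control mouse 3 to 0.20 without control mouse 2. The gene contains 2 processed pseudogenes, Gm16027 and Gm8783.

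Nt5e encodes CD73, which makes adenosine from AMP, and lies on chromosome 9 from 88327197 to 88372092. Its level was 18.3, 18.3, 21.5 and 24.7 CPM in control mice 1 to 4 and 15.7, 21.1, 24.4 and 20.1 CPM in tRA mice 1 to 4. The lowest value was in tRA mouse 1, and the highest was in control mouse 4. Between the groups, the log2 fold change was -0.026 with a standard error of 0.142 and an interval from -0.34 to 0.29 (edgeR FDR 0.982), and it turned to 0.080 without tRA mouse 1 and 0.069 without control mouse 4.

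Adora2a, the gene of an adenosine receptor that raises cyclic AMP and dampens T cell responses, lies on chromosome 10 from 75316877 to 75334784. It stood at 23.7, 21.8, 26.8 and 25.8 CPM in control mice 1 to 4 and at 23.9, 27.0, 22.6 and 23.6 CPM in tRA mice 1 to 4. The groups covered nearly the same range. Its log2 difference was -0.016 with a standard error of 0.0909 and an interval from -0.22 to 0.18 (edgeR FDR 0.982), with a positive sign under 4 alternative settings, 0.023 at most, without control mouse 3.

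**Figure D3:**
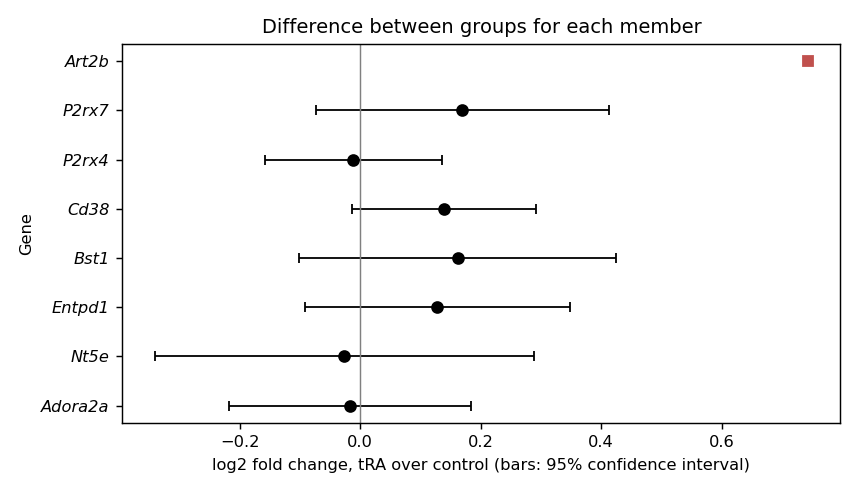
Log2 fold change of tRA over control for each of the 8 genes, with a line at 0. Bars are the 95% confidence interval from the quasi-likelihood fit for the 7 genes other than Art2b (black circles), and all 7 include 0. Art2b (red square) was chosen on this contrast, is at 0.74 and has no bar. The signs of P2rx4, Nt5e and Adora2a turned under library size alone and without single mice, and that of P2rx4 also with the T cell marker covariate.

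The members were next compared with Art2b mouse by mouse, as log2 CPM with each group mean taken off, over the 8 mice. P2rx7 had a Pearson r with Art2b of 0.80 (Spearman rho 0.86), rank 595 of 16483 genes, and Nt5e an r of 0.76 (rho 0.79), rank 924. For these 3 genes control mouse 4 was the highest control mouse and tRA mouse 1 the lowest tRA mouse. Entpd1 had an r of 0.58 (rho 0.40), Cd38 of 0.45 (rho 0.48) and Adora2a of 0.18 (rho 0.19), while P2rx4 and Bst1 were at -0.12 (rho -0.14) and -0.077 (rho -0.29).

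The 5 genes most like Art2b by this measure were Mtrex, an RNA helicase of the nuclear exosome, with an r of 0.99 (rho 1), Itgb8, an integrin subunit, with 0.98 (rho 0.98), the antisense gene Gm26693 with 0.98 (rho 1), the kappa variable gene Igkv5-39 with 0.98 (rho 0.95) and Dis3, a nuclease of the exosome, with 0.97 (rho 0.98). They are the highest of 16483 values over 8 mice, a description of these libraries. Their own differences between the groups went both ways, from -0.69 on the log2 scale for Itgb8 and -0.43 for Igkv5-39 to 0.093 for Dis3, 0.10 for Mtrex and 0.46 for Gm26693, which had 0.251 ± 0.182 CPM in control and 0.343 ± 0.135 in tRA mice (SD, n = 4).

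Around the members, 86 further genes of the pathway were listed in 8 groups by role, of which 85 were in the table and 68 passed the filter. At an FDR under 0.1, edgeR called 0 of the 68, DESeq2 and limma-voom also called 0, and 3 (4.41%) had an unadjusted p under 0.05, beside 6.49% of all genes tested, a share that single mice moved as given above. Positive log2 fold changes were found for 37 and negative ones for 31, with a median of 0.0068 against 0.0014 over all genes tested. The groups overlapped for all 68, where 1.91% of all genes tested lay with tRA above control and 1.63% with tRA below.

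Among other genes of ADP-ribosylation, which attach or remove ADP-ribose or act on it, 9 of 12 were tested, 3 positive and 6 negative, with a median log2 fold change of -0.059. The most abundant per length by mean was Adprhl2 (16.6 RPKM), an ADP-ribose hydrolase. Its level was 42.3 ± 6.98 CPM in control and 39.8 ± 2.82 in tRA mice (SD, n = 4). Another gene of the list was close at 16.2 RPKM. Its range over the mice (15.6 to 17.8 RPKM) lay inside that of Adprhl2 (14.8 to 21.2 RPKM), so their order is uncertain. The other P2X receptors had low levels. Of these 5 genes 2 were tested, both positive with a median of 0.28, and the most abundant, P2rx1, stood at 0.948 ± 0.320 and 1.11 ± 0.123 CPM, on 21 to 44 counts per mouse.

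The list of P2Y receptors, G protein-coupled receptors for nucleotides, also holds the P2Y-like P2ry10 and P2ry10b, which are known as lysophospholipid receptors. It was 4 positive and 4 negative among 8 tested of 9, with a median of 0.0088. P2ry10 was the most abundant per length (48.2 RPKM), at 148 ± 27.5 and 139.6 ± 42.3 CPM in control and tRA mice. Of the 3 pathway genes with an unadjusted p under 0.05, named here after their values were seen, 2 were in this list and had positive values. P2ry10b stood at 21.4, 19.4, 17.1 and 14.3 CPM in control mice 1 to 4 and at 21.4, 28.7, 22.2 and 27.6 CPM in tRA mice 1 to 4, a log2 fold change of 0.47 with a standard error of 0.139 (edgeR FDR 0.757). The lowest tRA mouse and the highest control mouse had nearly equal values. P2ry1, a receptor for ADP, stood at 1.10 ± 0.103 and 1.64 ± 0.366 CPM, a log2 fold change of 0.57 with a standard error of 0.221 (edgeR FDR 0.757), on 31 to 74 counts per mouse.

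Genes of ATP release through channels and vesicles were 4 positive and 4 negative among 8 tested of 11, with a median of -0.014. The vesicular nucleotide transporter Slc17a9 led them per length (28.6 RPKM), with 88.8 ± 5.23 CPM in control and 94.3 ± 1.62 in tRA mice. Genes of nucleotide breakdown were likewise 4 and 4 among 8 tested of 11, with a median of 0.00062. Nt5c, a cytosolic nucleotidase, led them (71.2 RPKM) with 84.1 ± 10.4 and 78.2 ± 5.12 CPM. The third pathway gene with an unadjusted p under 0.05 was another nucleotidase gene, Nt5c2, at 53.0 ± 2.68 and 47.5 ± 2.32 CPM, a log2 fold change of -0.16 with a standard error of 0.0675 (edgeR FDR 0.757). Its groups overlapped because control mouse 2, at 49.0 CPM, was below tRA mouse 2, at 50.3 CPM.

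Of 11 genes of adenosine sensing, uptake and removal, 10 were in the table and 8 were tested, 3 positive and 5 negative, with a median of -0.060. The concentrative transporter Slc28a2 led them per length (13.7 RPKM), with 56.4 ± 4.50 CPM in control and 58.8 ± 4.79 in tRA mice. Genes of NAD synthesis and use were 7 positive and 4 negative among 11 tested of 13, with a median of 0.0097. Nadk, which phosphorylates NAD, led them (32.1 RPKM) with 119.0 ± 7.29 and 121 ± 6.38 CPM.

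The genes downstream of P2X7, of the inflammasome and of surface proteins that are shed when the channel opens, were all tested, 10 positive and 4 negative of 14, with a median log2 fold change of 0.039. Fcer2a, which encodes the IgE receptor CD23, was the most abundant per length (268 RPKM), at 787 ± 96.8 CPM in control and 872 ± 67.6 in tRA mice, a log2 fold change of 0.15 with a standard error of 0.0990 (edgeR FDR 0.796). The groups overlapped for Fcer2a.

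Because tRA acts through nuclear receptors that bind hexamer repeats, the RefSeq promoters of the members (GRCm38.p6, 300 bases around each start) were searched on both strands. Of the 8 members, 6 had an entry, with 8 starts in all, and Bst1 and Adora2a were without one. For Art2b the stretch searched, chr7:101581112-101581411, lies inside the annotated gene. The 5′ end of that gene, at 101585600 on the minus strand, was not searched. The half-site AGGTCA was in 2 of the 8, a start of P2rx7 and that of P2rx4, and in 16.3% of all 32851 promoters of this length. AGTTCA, which 14% hold, was in 0 of the 8, as were direct repeats of AGGTCA spaced by 1, 2 or 5 bases and of AGTTCA spaced by 5, each in at most 0.0396% of all promoters. Both matches are on the minus strand and are shown 5′ to 3′ along the plus strand with the half-site in capitals, for P2rx7 at chr5:122650181-122650206 and for P2rx4 at chr5:122707383-122707408. A match is a description of the letters and not evidence of binding.
P2rx7: tgtatgccgtTGACCTgggaagaaga
P2rx4: ctccgggagcTGACCTtgctccctgc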

How the data were processed

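The authors deposited raw counts per gene for 8 libraries, without normalization. The paper's methods name Bowtie2, Tophat2 and HTSeq, whereas the submitters' processing notes name STAR 2.5.2b, featureCounts 1.5.1, DESeq2 1.26.0 and GRCm38, so the aligner and the counter are uncertain. How either treated reads that match several genes is not given in the sources used here. A deposited DESeq2 table holds the authors' own comparison (means, fold changes and p-values) and was not used. Members and lists were chosen with earlier results of these data known. The values of 1 further gene, and summed levels that include it, are not reported here.

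Counts were filtered by filterByExpr (minimum count 10), normalised by TMM and tested over all genes by edgeR 4.0.16 (quasi-likelihood, Benjamini-Hochberg, FDR threshold 0.1) in R 4.3.3, without a covariate. Mice of the same group all differed beyond sampling noise (chi-square per degree of freedom from 12.9 to 65.4). RPKM used the union exon length of GENCODE M21, in which 51633 of the 51826 genes were found. Sequences were aligned with Biopython 1.88, and plots were drawn with matplotlib 3.10.9 in Python 3.11.15.

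Genes named were the members, the copy of Art2b, the 5 genes with the highest Pearson r to Art2b (log2 CPM, prior count 2), and in each pathway list the most abundant per length, any with an FDR under 0.1 and up to 3 with the largest change among those without overlap (0 of the last 2 kinds). P2ry10b, P2ry1 and Nt5c2 were named outside this rule, after their values were seen. Alternatives were DESeq2 1.42.0, limma-voom (limma 3.58.1), RLE normalization, library size alone, no filter, protein-coding genes only, at least 10 counts in every sample, a T cell marker covariate, the replicate number as a block, each mouse left out, and the summed counts of Art2b and its copy.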

Additional observations from a re-analysis of the deposited data

Results flagged for a closer look

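Among 82 groups of 4 mice examined, for the genes named and the summed marker lists, 8 had a mouse far from the other 3. Chance flags about 1 in 20 groups, or 4.1, but only for groups not chosen on these values. Mtrex and Itgb8 were chosen for likeness to Art2b, which was lowest among tRA mice in mouse 1, and Nt5c2 for its unadjusted p. No excess of flags over chance can therefore be read from these numbers. Among the members this was Bst1 in tRA mouse 4, at 7.85 CPM against 6.33 to 6.41 in the other tRA mice. In tRA mouse 1, Mtrex was at 61.4 CPM against 70.4 to 71.3, Itgb8 at 0.519 CPM against 0.825 to 0.882, Slc28a2 at 51.7 CPM against 60.5 to 62.2, and the summed T cell markers at 2091 CPM against 1915 to 1923. In tRA mouse 4 the summed B cell markers were at 6071 CPM against 6251 to 6268. In control mice, P2ry10 was at 188.6 CPM in mouse 1 against 130.4 to 138.5, and Nt5c2 was at 49.0 CPM in mouse 2 against 54.1 to 54.6.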

How the results depend on the processing

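The number of genes called by edgeR at an FDR under 0.1 was 0, against 27 by DESeq2, 1 by limma-voom and 6 when low counts were not filtered. Leaving out single mice gave 0 to 3 (3 without tRA replicate 4). Of the members, DESeq2 called 1, Art2b, which was chosen on this contrast, so the call is not read as a test. No alternative called a pathway gene. The log2 fold change of Art2b ran from 0.64 to 0.91 under all 17 alternatives. As the gene was chosen for its difference in these same mice, that constant sign is no test of it. With the counts of Art2b and Art2a-ps summed, a value of the pair chosen after seeing the data, the log2 fold change was 0.53. Among the other members, it stayed positive for P2rx7 (0.11 to 0.29), Cd38 (0.098 to 0.18), Bst1 (0.080 to 0.19) and Entpd1 (0.066 to 0.20) under their alternatives. An unadjusted p under 0.05 was found for Cd38 with library size alone (0.0429, beside 7.02% of all genes tested), without control mouse 1 (0.0316, beside 5.25%) and without tRA mouse 1 (0.0433, beside 12.6%), and for P2rx7 without control mouse 4 (0.00747, beside 6.35%), with an FDR of 0.385 or above in each. The sign turned for P2rx4 under library size alone (0.019) and with the T cell marker covariate (0.0043), and its values with each mouse left out ran from -0.051 to 0.022. With library size alone Nt5e was at 0.0084 and Adora2a at 0.013. With each mouse left out Nt5e ran from -0.13 to 0.080 and Adora2a from -0.073 to 0.023. The cause was not tested. Same-numbered mice share only a number, with correlations of their deviations of 0.157, -0.0229, -0.0140 and 0.259, and with the replicate block 0 genes were called, 0 of them members or pathway genes, with 1200 at an unadjusted p under 0.05. The values of Art2b rest on 4 mice a group and 155 to 382 counts per mouse, and the cells that carry each transcript were not separated.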
